A study of Mus musculus with 4 samples.

Results

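The 9 genes described here, *Spic*, *Maf*, *Cd163*, *Slc48a1*, *Hmox1*, *Blvrb*, *Slc11a1*, *Slc40a1* and *Vcam1*, serve macrophages that recycle heme iron and that hold maturing erythroblasts in erythroblast islands. They were picked by name out of the 20523 genes named on the array, after higher values of macrophage genes in *Ddb1*-deficient cells had been seen in these data. Their differences between the groups are therefore given as a description, with no test. Every probe set whose gene symbol is 1 of these 9 was taken, which gave 20 of 45037 probe sets. Where a gene had several, the probe set with the highest mean over all arrays stood for it.

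Expression was measured in LSK cells (lineage-negative, Sca1+, cKit+), a population enriched for hematopoietic stem cells, which were sorted from fetal livers at E16.5. The *Ddb1*-deficient group held 2 samples from DDB1 flox/flox, VavCre+ embryos. The control group held 2 samples from DDB1 flox/flox, VavCre- embryos, which carry the floxed alleles but no Cre. All embryos were of the mixed strain C57BL/6x129. VavCre is active throughout the blood lineages, mature cells included, so that deletion is not limited to the sorted LSK cells. Each sample was 1 array, and whether it came from 1 embryo or a pool is not given in the sources used here. Values are the log2 of the RMA intensity, a normalized and summarized probe signal that can be compared between arrays for 1 probe set but not between probe sets.

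Macrophages of the fetal liver, spleen and bone marrow clear the nuclei expelled by erythroblasts and, in later life, whole aged red cells. Heme from that hemoglobin is carried out of the phagolysosome and opened by heme oxygenase to biliverdin, carbon monoxide and iron, and the iron is stored in ferritin or exported through ferroportin. In mice the Ets factor Spi-C is required for the red pulp macrophages of the spleen, and heme induces its gene by removing the repressor Bach1.

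*Ddb1* was at 4.58 and 4.33 in the *Ddb1*-deficient arrays, against 6.06 and 6.26 in the control arrays, in the direction that the labels give. *Xist* and the Y-linked *Kdm5d* showed that array 1 of each group came from male and array 2 from female cells. Array medians lay between 2.026 and 2.085, and the 2 arrays of a group correlated over probe sets with a Pearson's r of 0.94 (*Ddb1*-deficient) and 0.97 (control). *Kit*, *Ly6a* (encoding Sca1) and *Ptprc* (CD45) were well above the median on all arrays and overlapped between the groups, while *Itgam* (Mac-1), a target of the study's lineage depletion as stated for bone marrow, lay between 1.46 and 1.78 on all arrays. Some neutrophil genes were nevertheless above the median probe set on all arrays. *S100a8* was at 8.07 and 6.85 in *Ddb1*-deficient and 11.84 and 12.47 in control arrays, and *Ltf* at 4.04 and 3.70 in *Ddb1*-deficient and 8.16 and 9.02 in control arrays. Others were above it in the control arrays only, such as *Ctsg* with 7.37 and 6.20, against 1.33 and 1.13 in *Ddb1*-deficient arrays. Over all genes limma called 0 higher and 0 lower at an adjusted p under 0.05, so that 0% of genes were called in either direction, with a smallest adjusted p of 0.132. Without adjustment, limma placed 1006 genes (4.9%) on the higher and 1241 (6.05%) on the lower side at p under 0.05, where the methods' unpaired test placed 916 (4.46%) and 767 (3.74%). With 2 arrays a group an exact permutation cannot go below p = 0.333, and all p-values rest on the scatter of these few samples alone, some of which may be technical.

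Each of the 9 genes had higher values in *Ddb1*-deficient LSKs, and for each the lower *Ddb1*-deficient array still exceeded the higher control array. Across all genes 22.6% were separated in this direction and 18.5% in the other. The differences ran from 1.09 for *Blvrb* to 3.71 for *Spic* on the log2 scale, with a median of 2.44 over the 9 genes and of 0.03 over all genes. Since the genes were chosen with this contrast in view, nothing is read from these figures about the 9 as a set. All 9 also lay above the median probe set (2.06) on the control arrays, where the lowest value was 3.69 (*Blvrb*). The arrays measure RNA of the sorted population as a whole, so that more cells of a type and more RNA per cell cannot be told apart.

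**Figure D1:**
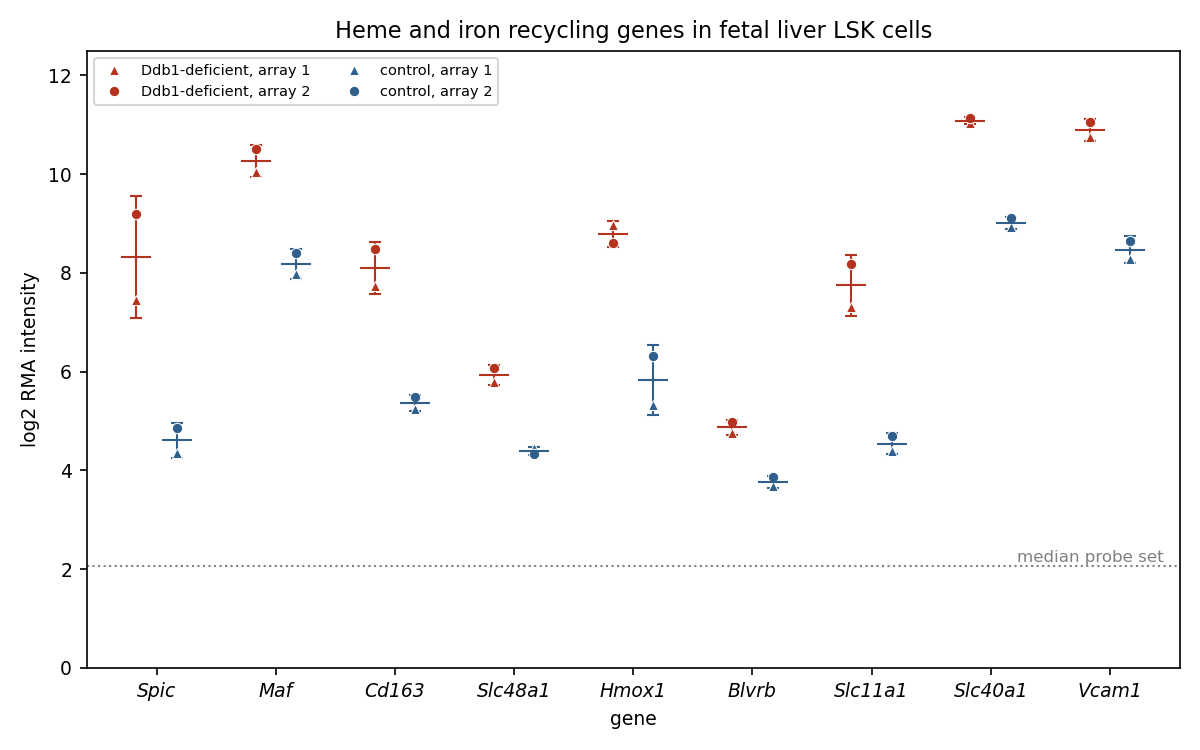
Log2 RMA intensity (y axis) of the 9 genes (x axis), with the 2 *Ddb1*-deficient arrays in red to the left of the 2 control arrays in blue. Triangles are arrays 1, circles arrays 2, horizontal ticks group means and bars the SD (n = 2); for every gene both red points lie above both blue points, with the widest red spread at *Spic* (7.45 and 9.19).

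Of the regulators, *Spic*, the Ets factor gene of red pulp macrophages, was at 7.45 and 9.19 in the *Ddb1*-deficient arrays, against 4.36 and 4.86 in the control arrays. The groups did not overlap, but the *Ddb1*-deficient arrays stood 1.74 apart, the widest gap within a group of any of the 9 genes. The means were 8.32 ± 1.23 in *Ddb1*-deficient and 4.61 ± 0.35 in control arrays (SD, n = 2 each, as for all means here), a difference of 3.71 ± 0.66 (SE of the fit) or 13.1-fold, with 17 of 20523 genes at or above that difference. Both probe sets of *Spic* are of the types _s_at and _x_at, which the array's design marks as able to match other transcripts. The second of them was at 6.24 and 6.45 in the *Ddb1*-deficient arrays, against 1.95 and 4.48 in the controls, where array 1 lay below the median probe set.

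*Maf* encodes c-Maf, a large Maf factor of tissue macrophages that T cells and the lens use as well. It was at 10.04 and 10.50 in the *Ddb1*-deficient arrays, against 7.97 and 8.40 in the control arrays. Within each group array 2 was higher by a similar step (0.46 and 0.43), and the groups stayed 1.64 apart at their nearest arrays. The means of 10.27 ± 0.32 (*Ddb1*-deficient) and 8.18 ± 0.31 (control) differed by 2.09 ± 0.28 (SE), or 4.25-fold. *Maf* has 6 probe sets, the most of the 9 genes, and their differences were unequal. The probe set 1437473_at, aligned to the same stretch as the one above, had a difference of 2.61. It was at 8.25 and 7.12 in the *Ddb1*-deficient arrays, against 4.88 and 5.28 in the control arrays. Those aligned 19.5 and 20.1 kb away from it, 1435828_at and 1447849_s_at, had differences of 1.30 and 1.91 from control values at or below 2.77. Another, 1447945_at, differed by 0.26 and 1444073_at by 0.64, the only probe set of the 20 whose arrays overlapped between the groups.

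For uptake, *Cd163* encodes a scavenger receptor for hemoglobin on macrophages. It was at 7.73 and 8.48 in the *Ddb1*-deficient arrays, against 5.25 and 5.48 in the control arrays. All values were above the median probe set, and the nearest arrays of the groups were 2.25 apart. Means of 8.10 ± 0.53 (*Ddb1*-deficient) and 5.37 ± 0.16 (control) gave a difference of 2.74 ± 0.32 (SE), or 6.66-fold.

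*Slc48a1* encodes HRG1, the transporter that brings heme from the phagolysosome into the cytosol. Its values were 5.79 and 6.07 in the *Ddb1*-deficient arrays and 4.45 and 4.33 in the control arrays. On the probe sets that stood for the genes, it was the only 1 of the 9 with control array 2 below control array 1, by 0.12. The difference was 1.54 ± 0.20 (SE), or 2.90-fold, between means of 5.93 ± 0.20 (*Ddb1*-deficient) and 4.39 ± 0.08 (control). The second probe set gave a larger difference of 2.34, with 5.77 and 5.35 in the *Ddb1*-deficient arrays, against 3.71 and 2.74 in the controls.

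Heme breakdown starts with *Hmox1*, the inducible heme oxygenase, which most cells raise under oxidative stress and which macrophages express at high levels. It stood at 8.97 and 8.61 in the *Ddb1*-deficient arrays and at 5.33 and 6.32 in the control arrays. On the probe sets that stood for the genes, it was the only 1 of the 9 with *Ddb1*-deficient array 2 below array 1. Its control arrays were 0.99 apart, the widest control gap among the 9 on these probe sets. With means of 8.79 ± 0.26 (*Ddb1*-deficient) and 5.83 ± 0.70 (control) the difference was 2.96 ± 0.41 (SE), or 7.80-fold.

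*Blvrb* encodes biliverdin reductase B, a flavin reductase that red cells hold in large amounts. It was at 4.76 and 4.98 in the *Ddb1*-deficient arrays, against 3.69 and 3.86 in the control arrays. Its groups were the nearest to each other among the 9 genes, at 0.90 between the lowest *Ddb1*-deficient and the highest control array. The difference of 1.09 ± 0.20 (SE), or 2.13-fold, between means of 4.87 ± 0.16 (*Ddb1*-deficient) and 3.77 ± 0.12 (control), was the smallest of the 9 on this scale, and 4.22% of all genes were at or above it.

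Iron leaves the phagosome through *Slc11a1*, which encodes NRAMP1, a metal transporter of macrophages and neutrophils known from resistance to intracellular bacteria. It was at 7.31 and 8.19 in the *Ddb1*-deficient arrays, against 4.39 and 4.69 in the control arrays. The nearest arrays of the groups were 2.62 apart, the widest such gap of the 9 genes. The difference was 3.21 ± 0.37 (SE), or 9.25-fold, between means of 7.75 ± 0.62 (*Ddb1*-deficient) and 4.54 ± 0.21 (control). Markers of neutrophils and monocytes had lower values on the same *Ddb1*-deficient arrays, with a median difference of -4.70. The part of any cell type in the values of *Slc11a1* was not tested.

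*Slc40a1* encodes ferroportin, the only known iron exporter of mammalian cells, which hepcidin removes from the surface. Its values were 11.03 and 11.13 in the *Ddb1*-deficient arrays and 8.92 and 9.11 in the control arrays. The spread within each group was small against the gap of 1.92 between them. Means of 11.08 ± 0.07 (*Ddb1*-deficient) and 9.01 ± 0.13 (control) differed by 2.07 ± 0.19 (SE), or 4.20-fold, and its other probe set, with more spread in the controls (7.53 and 8.54), differed by 2.62.

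Promoter sequence, 250 bases before to 50 after the start site, was read from RefSeq tables of build GRCm38.p6, which matched 4 of the 9 genes (*Spic*, *Cd163*, *Slc11a1* and *Blvrb*, the last with a pair of start sites). *Slc11a1* and *Spic* are shown because they had the largest differences of the 9 genes, and *Spic* itself encodes an Ets factor. The search, on both strands, was for GAGGAA (the core that Spi factors prefer), TGACNNNGC (the core of the antioxidant response element), CACGTG (E-box) and the Maf recognition element, which can overlap an AP-1 site. Capitals mark a match.
Slc11a1, chr1:74374953-74375252, + strand: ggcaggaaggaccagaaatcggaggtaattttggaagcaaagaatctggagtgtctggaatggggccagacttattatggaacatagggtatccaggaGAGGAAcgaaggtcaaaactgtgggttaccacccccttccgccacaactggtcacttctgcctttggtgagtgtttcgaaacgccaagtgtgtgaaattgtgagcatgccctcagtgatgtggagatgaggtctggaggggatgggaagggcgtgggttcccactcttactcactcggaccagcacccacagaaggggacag
Spic, chr10:88682974-88683273, - strand: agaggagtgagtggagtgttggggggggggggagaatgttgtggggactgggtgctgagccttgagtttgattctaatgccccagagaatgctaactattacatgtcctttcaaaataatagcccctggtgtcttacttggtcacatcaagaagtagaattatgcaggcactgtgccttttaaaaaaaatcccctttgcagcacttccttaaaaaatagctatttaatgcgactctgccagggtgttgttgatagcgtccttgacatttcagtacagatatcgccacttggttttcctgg
GAGGAA was found in 1 of the 5 promoters, that of *Slc11a1*, on the printed strand with its first base at -152, and 28.3% of all 32851 promoters hold it. The others, which 12.4%, 7.15% and 0.423% of all promoters hold, were in 0 of the 5. A match is a description of letters, not a binding site.

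For the island itself, *Vcam1* encodes the adhesion molecule with which central macrophages bind the integrin VLA-4 of erythroblasts. Endothelial and stromal cells express it too. It was at 10.75 and 11.06 in the *Ddb1*-deficient arrays, against 8.28 and 8.65 in the control arrays. Array 2 was the higher in both groups, and the nearest arrays of the groups were 2.09 apart. Means of 10.90 ± 0.22 (*Ddb1*-deficient) and 8.47 ± 0.27 (control) differed by 2.44 ± 0.24 (SE), or 5.42-fold. Its 4 probe sets gave close differences, between 2.42 and 2.53, among them 1451314_a_at, aligned to a span of only 6.4 kb where the main probe set spans 19.8 kb.

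Of the 20 probe sets 19 were separated upwards in *Ddb1*-deficient cells, 1 overlapped and 0 were separated downwards, beside 21.5% of all probe sets that were separated upwards. Several probe sets read the same transcripts and so do not count as separate evidence. Above the median probe set on all arrays were 16 of the 20. The other 4 are 1 of *Spic*, 1 of *Vcam1* and 2 of *Maf*, and their differences include values at or under that level.

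**Figure D2:**
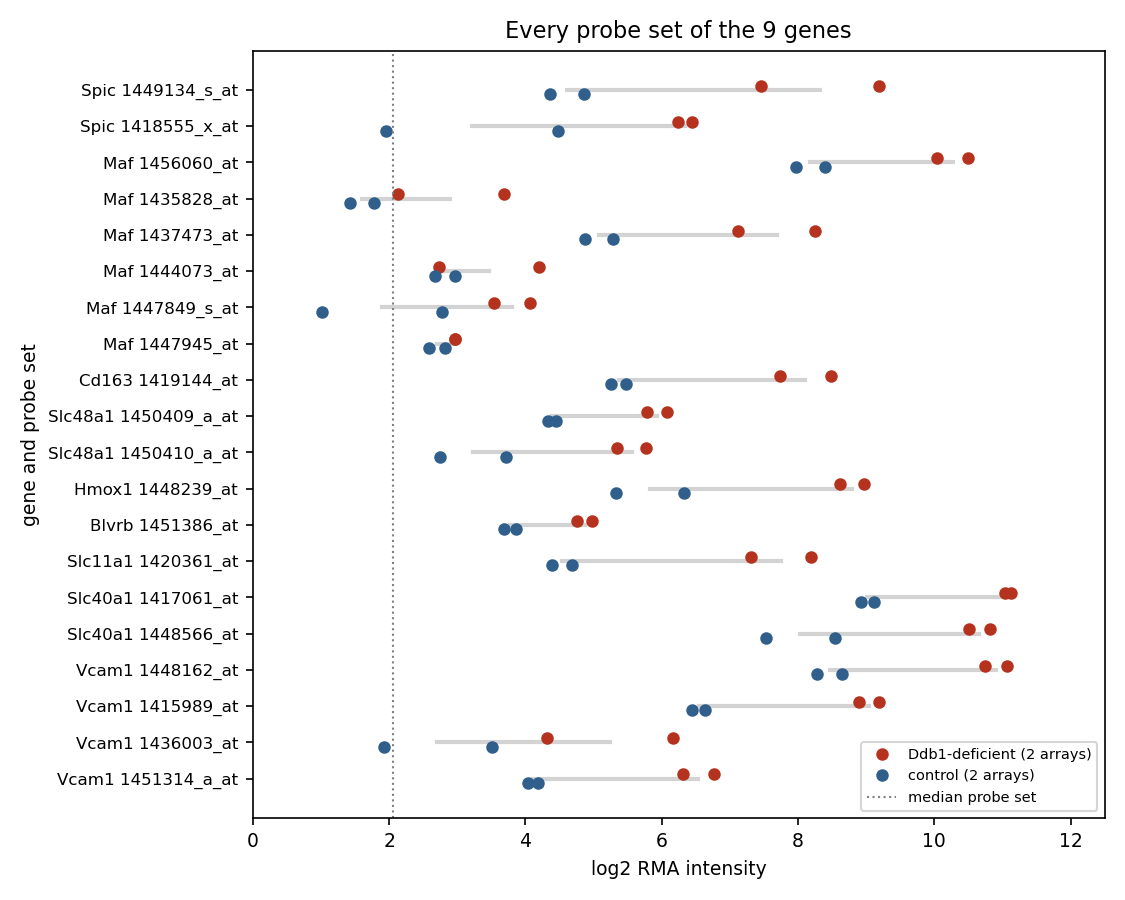
Log2 RMA intensity (x axis) on each array for all 20 probe sets of the 9 genes (y axis), red for the 2 *Ddb1*-deficient and blue for the 2 control arrays, with a grey bar between the group means and a dotted line at the median probe set (2.06). Red lies to the right of blue in 19 probe sets, and the points of *Maf* 1444073_at overlap.

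The arrays of a group also differed from each other. Of the 9 genes 8 were higher on *Ddb1*-deficient array 2 than on array 1 (median 0.32), where 51.3% of all genes were. In the controls 8 of the 9 were higher on array 2 (median 0.30), beside 49.5% of all genes. On the probe sets that stood for the genes, the exceptions were *Hmox1* in the *Ddb1*-deficient and *Slc48a1* in the control arrays. Between the *Ddb1*-deficient arrays *Maf* 1437473_at (8.25 and 7.12) and the second probe set of *Slc48a1* (5.77 and 5.35) went the other way. The other probe sets of *Spic*, *Slc40a1* and *Vcam1* did not. Compared within the male arrays alone the 9 genes had a median difference of 2.47, and within the female arrays of 2.29, with 9 of 9 higher in each, which follows from the separation of the groups, beside 30.7% of all genes that were higher in both sexes. On the probe set that stood for each, *Slc40a1* (2.11 male, 2.03 female), *Vcam1* (2.47 and 2.41), *Maf* (2.07 and 2.10) and *Blvrb* (1.07 and 1.12) gave nearly the same value in each sex. Other probe sets were less even for *Maf* (1437473_at, 3.37 male and 1.85 female) and *Slc40a1* (2.98 and 2.27). Those of *Vcam1* stayed between 2.27 and 2.66. On the probe sets that stood for them, *Spic* gave 3.09 and 4.33 and *Hmox1* 3.64 and 2.29, a contrast that 1 array of each kind cannot test. The other probe set of *Spic* had the reverse order, with 4.29 male and 1.96 female.

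**Figure D3:**
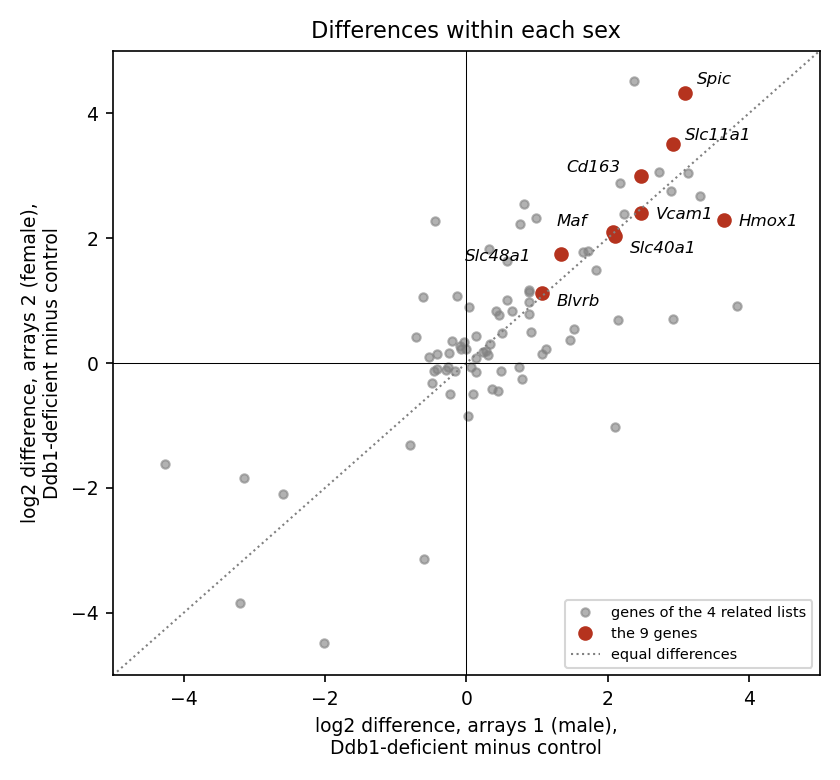
Log2 difference, *Ddb1*-deficient minus control, within the male arrays (x axis) and within the female arrays (y axis), in red for the 9 genes and in grey for the genes of 4 related lists. All red points lie above 0 on both axes, between 1.07 (*Blvrb*, male) and 4.33 (*Spic*, female), with *Spic* above and *Hmox1* below the dotted line of equal differences. Each point is the probe set that stands for its gene, and the other probe set of *Spic* gave 4.29 (male) and 1.96 (female).

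The rest of the heme and iron machinery was mixed. Of 29 measured genes 12 were separated upwards, 4 downwards and 13 overlapped, beside 22.6% upwards and 18.5% downwards over all genes. Limma called 0 of the 29 in either direction, as it called 0% of all genes. The median difference was 0.10. Without control array 2 that median was 0.16, and without *Ddb1*-deficient array 2 it was 0.15. Below the median probe set on all arrays were 5 of the 29, among them 2 of the 12, *Hamp* and *Hpx*. Ferritin, the store beside export, was higher by 0.93 for the heavy chain *Fth1* (12.30 and 12.55 in *Ddb1*-deficient, 11.42 and 11.58 in control arrays) and by 1.71 for the light chain *Ftl1* (7.97 and 8.51 in *Ddb1*-deficient, 6.32 and 6.74 in control arrays). The iron carrier transferrin, *Trf*, had the largest positive difference of the list at 2.89, and its receptor *Tfrc* was higher by 0.84. *Slc25a37*, the mitochondrial iron importer of erythroid cells, and *Lrp1*, the hemopexin receptor, differed by 1.82 and 2.37. *Lrp1* had unequal values of 5.48 and 2.70 in *Ddb1*-deficient arrays, and its control values of 1.65 and 1.78 did not reach the median probe set, which leaves the size of its difference open to doubt. Beside *Hmox1*, the constitutive heme oxygenase gene *Hmox2* overlapped (6.62 and 5.89 in *Ddb1*-deficient, 6.48 and 6.03 in control arrays), and beside *Blvrb*, *Blvra*, the main biliverdin reductase of adults, was higher by 1.49. *Lcn2*, a siderophore-binding protein, and *Hp*, haptoglobin, both of neutrophil granules, differed by -3.25 and -2.49, and the heme exporter gene *Flvcr1* by -1.06.

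Factors known to act on some of the 9 genes were read in the same way, beside 22.6% of all genes separated upwards and 18.5% downwards. *Bach1*, the heme-sensitive repressor of *Hmox1* and *Spic* in mice, overlapped between the groups (7.23 and 7.93 in *Ddb1*-deficient, 7.94 and 7.52 in control arrays). *Nfe2l2*, which encodes the activator NRF2, was at 7.31 and 7.04 in *Ddb1*-deficient arrays, against 6.85 and 6.27 in control arrays. Of 10 other genes that respond to NRF2, 5 were separated upwards and 2 downwards (median 0.69), led by *Gclm* (2.30), *Txnrd1* (1.01) and *Osgin1* (0.92) on the upper side, with *G6pdx* (-0.17) and *Slc7a11*, which was below the median probe set on all arrays, on the lower. Without *Ddb1*-deficient array 1 the median was 0.38. Among 18 transcription factor genes of tissue macrophages, 8 were separated upwards, among them *Sall1* below the median probe set on all arrays, and 3 downwards (median 0.30, and 0.17 without *Ddb1*-deficient array 2). Among those separated upwards were *Tfec* (1.66) and *Rxra* (1.42), a partner of nuclear receptors. *Runx3* (-2.95, with 1 *Ddb1*-deficient array at 2.03, under the median probe set) and *Irf8* (-2.34), a factor of monocytes and dendritic cells, differed most the other way, and *Spi1*, the PU.1 gene related to *Spic*, overlapped (5.82 and 4.50 in *Ddb1*-deficient, 5.49 and 4.20 in control arrays). In neither list was a gene called, but limma called 0% of all genes, so that no list could hold one.

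The island partners of *Vcam1* were mixed. *Itga4*, the alpha chain of VLA-4, differed by -0.29 and *Itgb1*, its beta chain, by 1.03, while *Maea*, the erythroblast macrophage protein gene, overlapped. Of 18 adhesion and engulfment genes 11 were separated upwards and 2 downwards (median 1.03), beside 22.6% and 18.5% of all genes. Limma called 0 of the 18, as it called 0% of all genes. *Siglec1* (3.10), a sialic acid receptor of island macrophages, *Axl* (2.99), a receptor for dying cells, and *Stab1* (2.82), a scavenger receptor of macrophages and sinusoids, had differences between 2.82 and 3.10. The list also holds *Emp1* (-3.52, with *Ddb1*-deficient values of 2.33 and 1.73), which encodes epithelial membrane protein 1 and is not the erythroblast macrophage protein.

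Macrophage markers were mostly higher, as the 9 genes were. Both lists were chosen after higher values of macrophage genes had been seen, so this likeness is a description and no test. Of 15 measured, 13 were separated upwards and 0 downwards, beside 22.6% and 18.5% of all genes. Their median difference was 2.57, and the largest were those of *C1qa* (4.16), *Clec4f* (3.32), a Kupffer cell lectin, and *Fcgr1* (3.29). The summed linear intensity of the markers was 16484 and 19535 in the *Ddb1*-deficient arrays, against 3602 and 5542 in the controls. That of the 9 genes was 5994 and 7553 in *Ddb1*-deficient arrays, against 1199 and 1506 in control arrays. Such sums rest mostly on the brightest probe sets, for the 9 genes those of *Slc40a1*, *Vcam1* and *Maf*. Not all markers followed: *Lyz2* overlapped (9.49 and 10.07 in *Ddb1*-deficient, 9.83 and 10.66 in control arrays) and *Itgam* was below the median probe set on all arrays. The part of macrophages in the values of the 9 genes was not tested.

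Other cell types that express some of the 9 genes were read from their own markers. The counts stand beside 22.6% of all genes separated upwards and 18.5% downwards. Of 10 erythroid genes 8 were separated upwards and 0 downwards (median 1.31), among them *Alas2* (3.30) and *Slc4a1* (2.64). Their summed intensity, of which *Slc4a1* gave the largest part, was 2004 and 2391 in the *Ddb1*-deficient arrays, against 227 and 818 in the controls. The 1 probe set of *Hba-a1* alone was below the median probe set on all arrays, but 3 others, which name both *Hba-a1* and *Hba-a2* and so were left out of the list, lay between 7.53 and 11.53 in *Ddb1*-deficient and between 4.47 and 9.72 in control arrays, all 3 separated upwards. From control array 1 to 2 the median step was 0.92 for these erythroid genes, 0.54 for the macrophage markers and 0.30 for the 9 genes. Between the *Ddb1*-deficient arrays it was 0.18, 0.18 and 0.32. These steps rest on 1 pair of arrays each and were not tested. For *Vcam1*, endothelial genes had a median of 0.67 (7 of 12 separated upwards, 0 downwards), among them *Cdh5* (2.14), *Esam* (1.67, with 1 control array at 2.02, under the median probe set), *Stab2* (1.67) and *Clec4g*, which was below the median probe set on all arrays. The median was 1.03 without *Ddb1*-deficient array 1 and 1.10 without array 2, and the genes summed to 141 and 187 in the *Ddb1*-deficient arrays, against 62 and 72 in the controls. Stromal genes had a median of 0.16 (4 of 10 upwards, 2 downwards). It was 0.25 without *Ddb1*-deficient array 1 or without control array 1, 0.01 within male arrays and 0.28 within female arrays. Their sums were 42 and 50 in *Ddb1*-deficient, against 55 and 57 in control arrays, and *Col1a1*, *Col3a1* and *Lum* were below the median probe set on all arrays. For *Slc11a1*, 9 of 9 neutrophil and monocyte genes were separated downwards (median -4.70), among them *Mpo* (-6.10) and *Ctsg* (-5.56, with *Ddb1*-deficient values of 1.33 and 1.13 under the median probe set), with sums of 865 and 492 in *Ddb1*-deficient, against 11844 and 15393 in control arrays. Hepatoblast genes had a median of 0.22 (4 of 10 upwards, 2 downwards), 0.36 without *Ddb1*-deficient array 1, 0.08 without array 2 and 0.33 without control array 2. Among them *Apoa1* was at 1.42, *Alb* at 1.36 and *Hnf4a* at -2.64, the last with 1 *Ddb1*-deficient array at 1.81, under the median probe set. The LSK markers had a median of -0.02 (2 of 10 upwards, 3 downwards), with *Procr* at 2.73 and *Flt3* at -4.19, the last with *Ddb1*-deficient values of 2.00 and 1.49 under the median probe set. The part of these cells in the values of the 9 genes was not tested.

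**Figure D4:**
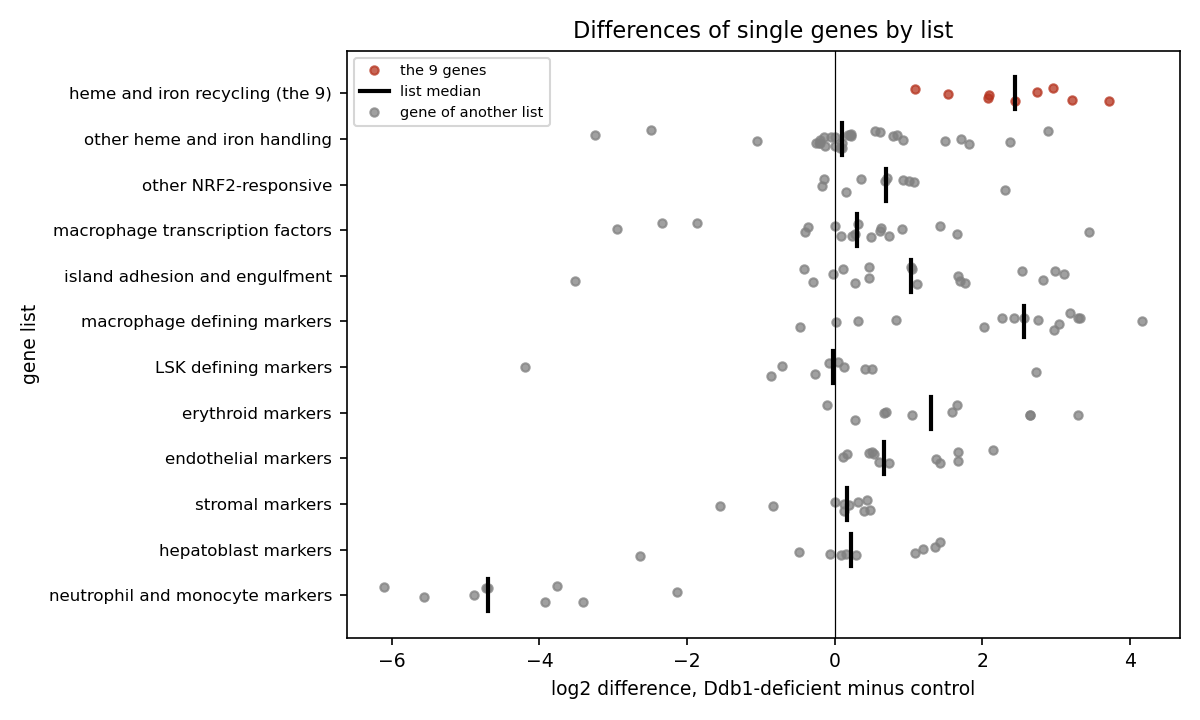
Log2 difference, *Ddb1*-deficient minus control (x axis), of each gene of 12 lists (y axis), with a black tick at the median of each list. The 9 genes (red, median 2.44) lie above 0, with medians of 2.57 for macrophage markers, 1.31 for erythroid markers and -4.70 for neutrophil and monocyte genes. The lists were chosen with earlier results of these data known, so a likeness between them is a description only.

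The genes whose profile over the 4 arrays lay nearest to the mean profile of the 9, each centred on its own mean, were *Fcna* (Euclidean distance 0.14 on the log2 scale), *Adap2* (0.19), *Ttyh2* (0.22), *Csf1r* (0.23) and *Abhd12* (0.27). Their differences between the groups were 2.49, 2.34, 2.37, 2.43 and 2.37. The 9 genes were chosen with this contrast in view, so nearness mostly restates its size and is a description only. *Fcna*, which encodes ficolin A, was at 8.99 and 9.59 in the *Ddb1*-deficient arrays, against 6.56 and 7.04 in the controls. *Csf1r*, the receptor for macrophage colony-stimulating factor, was at 11.57 and 11.79 in *Ddb1*-deficient arrays, against 8.98 and 9.52 in control arrays. Of the 9 genes themselves *Vcam1* lay nearest to their mean profile (0.12), and *Spic* (1.56) and *Blvrb* (1.35), with the largest and the smallest difference, lay farthest.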

How the data were processed

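Total RNA (20 ng) was amplified in 2 cycles and hybridized to Affymetrix Mouse430_2 arrays, 1 per sample. The authors normalized the arrays by RMA in GeneSpring and deposited, per probe set, a linear RMA intensity. The deposited table also has log2 columns, from which the control mean of each probe set had been subtracted, and the series matrix repeats these. A further table holds the authors' own comparison (p-values and fold changes with repeated sample values) and was not used.

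Groups were taken from the sample labels. The log2 of the deposited linear intensity was used. Of 45101 probe sets, 64 controls were left out, 37463 carry 1 gene name, 1460 several and 6114 none. Names were updated with a RefSeq gene table (assembly GRCm38.p6), with 34640 probe sets matched and 4907 renamed. For each of the 20523 genes the brightest probe set on average was kept. The comparison used limma 3.58.1 (lmFit, eBayes) under R 4.3.3, with Benjamini-Hochberg adjustment over all genes and a threshold of 0.05, after the fit was tested on simulated data. Residual degrees of freedom were 2, to which the prior added 1.96. Separated means that both arrays of a group lie above both of the other. The number of arrays limits precision.

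The 9 genes and the lists were chosen with earlier results of these data known. *Epb42* and *Stab2* stand in more than 1 list. Named beside the 9 genes were, per list, the 3 largest positive and the 2 largest negative differences with separated arrays and a mean above the median probe set in the higher group, the 5 nearest profiles, *Ddb1*, *Xist* and *Kdm5d*, and defining markers of cell types. Some genes that this rule names are not reported here. *Fth1*, *Ftl1*, *Tfrc*, *Hmox2*, *Blvra*, *Flvcr1*, *Bach1*, *Nfe2l2*, *Spi1*, *Itgb1* and *Maea* were added for their known link to the 9 genes, after their values were seen. *Hamp*, *Hpx*, *Slc7a11*, *Sall1* and *Clec4g* were named for their dim signal, also after their values were seen. The alternatives were other tests, a replicate block, other choices of probe set, filtering, scaling, the series matrix, each sex alone and each array left out.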

Additional observations from a re-analysis of the deposited data

Results flagged for a closer look

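*Maf* probe set 1444073_at differed by -0.24 between the male arrays and by 1.53 between the female arrays, *Ddb1*-deficient minus control, so that the sexes went opposite ways. It was at 2.73 and 4.20 in the *Ddb1*-deficient arrays, against 2.97 and 2.68 in the controls. All of these but 4.20 lay not far above the median probe set (2.06), which leaves the sign of the male difference open to doubt. The difference between the sexes was not tested, since each sex has 1 array per group.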

How the results depend on the processing

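Leaving out an array or a sex cannot turn the sign of a gene whose groups are separated, so those alternatives bear only on size. The median of the 9 genes lay between 2.25 and 2.63 over the alternatives. After centring, quantile normalization or averaging of probe sets all 9 were separated, and 8 without _x_at and _s_at probe sets, which leaves none for *Spic*. *Maf* differed by 1.47 as the mean of its probe sets, and *Spic* by 4.57 without *Ddb1*-deficient array 1 and by 2.84 without array 2. Limma called 0 genes in every alternative that kept the adjusted threshold, with the replicate block too. In this balanced design the block cannot move a difference, and the median of the 9 was 2.44 with it. Same-numbered arrays did not deviate together over genes (r = -0.015), and the numbers coincide with sex. The methods' t-test called 1 gene after adjustment (*4930551I15Rik*, a difference of 0.07) and 1683 without, and limma at an unadjusted p under 0.05 called 2247. Among the lists, the NRF2 median was 0.35 within female arrays and 0.38 to 0.83 with 1 array left out. The transcription factor median was 0.41 after quantile normalization, 0.21 within male arrays and 0.17 to 0.41 with 1 array left out. The adhesion median was 0.48 as the mean of probe sets, 0.81 within male arrays and 0.70 to 1.11 with 1 array left out, and that of macrophage markers 2.16 to 2.88. The LSK median, near 0, changed sign to 0.11 (quantile), 0.06 (mean of probe sets) and 0.04 (female arrays), and ran from -0.28 to 0.09 with 1 array left out (0.08 without *Ddb1*-deficient array 2). The cause was not tested.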
